A study of Salmo salar with 59 samples.

Results

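The pituitary glands of 10 immature Atlantic salmon males, 5 from light group D (fish 176, 180, 193, 198 and 255) and 5 from light group E (fish 221, 226, 233, 236 and 240), were taken from the 59 arrays of the series by their group label, with no measured value used in the choice. All fish were post-smolts reared for 18 weeks in brackish water of 20 ppt at 12.1 °C, and the testes of all 10 were labelled Stage I. Both groups had decreasing light, with no difference in light between them given in the labels, and group E alone was fed a low-fat diet. Any other difference in how the groups were kept cannot be told apart from the feed. Each one-colour Agilent oligonucleotide array received RNA from the pituitary of 1 fish, stored as an entire gland, so fewer cells of a type and less RNA per cell cannot be told apart. The labels give fish numbers but no tanks, so p-values measure the spread between these fish only.

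The pituitary links the brain to the gonads, the adrenal tissue, the thyroid and growth. Its endocrine cells secrete gonadotropins, prolactin, growth hormone, somatolactin, thyrotropin and the peptides cut from proopiomelanocortin, and in teleosts nerve fibres from the hypothalamus run directly into the gland. Day length reaches it through the brain and through clock genes, and feeding state through appetite peptides of the hypothalamus.

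No probe passed the threshold of an adjusted p under 0.05 and a log2-ER, the mean of group D minus the mean of group E, beyond 0.8. That was 0% of 33696 probes tested with limma, and the smallest adjusted p was 0.105. At an unadjusted p under 0.05 and the same limit, 2686 probes were higher in group D (7.97% of those tested) and 142 were lower (0.421%). Quantile normalization changed this split to 844 higher (2.5%) and 561 lower (1.66%), again with 0 at an adjusted p. Values of the 5 fish of each group did not overlap for 1412 probes with group D above (4.19%) and for 271 with group D below (0.804%). The count depended on the model: with the slide as a random block it was 362 (346 higher, 16 lower), with the other pituitary arrays sharing the spread 71, and without fish 226 of group E 263. In all 3 of these 55 probes were called, among them agrp, per1b, znf385a, flot1 and itpkb. These 3 alternatives gave the most calls and rest on the same fish, so their overlap is a description and no independent support. Normexp, quantile and median scaling and the scan batch as a block each gave 0. The methods' t-test gave 0 once Benjamini-Hochberg adjustment was added. At the study's own rule, which names no adjustment (p under 0.05 and the same limit), it gave 2201 of 33696 probes. Every gene below is given by its values, and none was called in the comparison as fixed.

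The excess of higher values in group D lay among the dim probes. Of the 2686 probes, 1406 belonged to the dimmest and 39 to the brightest of 5 equal bins of the probes tested by mean level. In the dimmest bin the median log2-ER was 0.45 with arrays scaled to their 75th percentile, 0.12 after normexp background correction, 0.02 after quantile and -0.01 after cyclic loess normalization, and in the brightest bin it was -0.07, -0.07, -0.03 and 0. Normexp added an offset of 50, which by construction shrinks the differences of dim probes, here and for the genes below. Quantile and cyclic loess normalization make the arrays alike at every level, so their medians near 0 were largely fixed in advance. These medians therefore cannot show whether the shift of the dim probes arose in the scaling. Single arrays stood out: relative to the mean of the 10 fish, the median dim probe stood at 0.41 in fish 176 and 0.53 in fish 193 of group D and at -0.51 in fish 233 of group E, whereas the other 7 fish lay between -0.27 and 0.12.

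**Figure D1:**
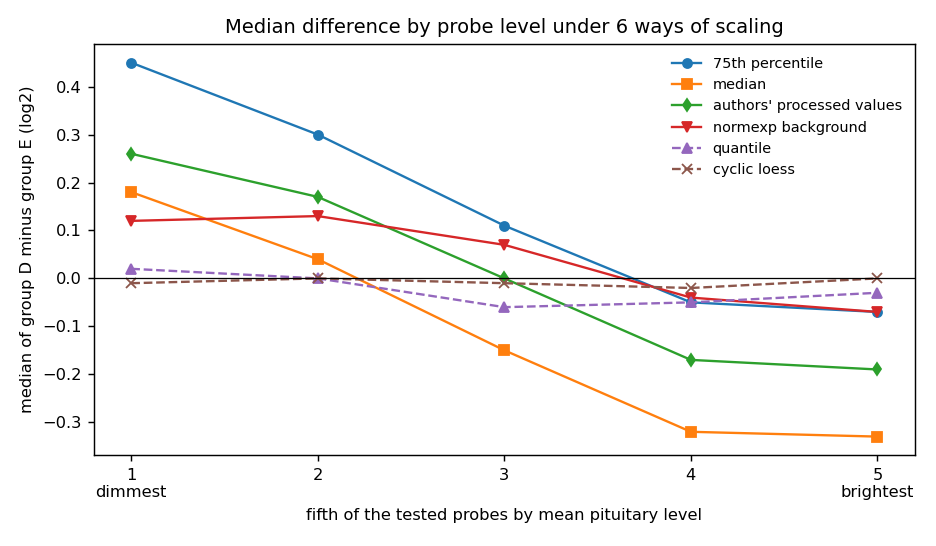
Median of group D minus group E on the log2 scale (y axis) for each of 5 equal bins of the tested pituitary probes ordered by mean level (x axis), with 1 line for each of 6 ways of scaling the arrays. With the 75th percentile as the reference the line runs from 0.45 in the dimmest bin to -0.07 in the brightest. Quantile and cyclic loess lines stay between -0.06 and 0.02, which was largely fixed in advance, since both make the arrays alike at every level.

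Technical values overlapped between the groups. The share of spots well above background was 75.9% to 84.3% in group D and 71.7% to 81% in group E (exact permutation p = 0.413, two-sided). The 75th percentile of the signal was 242 to 332 in group D and 297 to 615 in group E, highest in fish 233 and 240 (exact permutation p = 0.0714, two-sided). Fish 176 and 180 were scanned in a first batch and the other 8 fish in a second, and 3 slides held 1 array of each group (fish 193 with 226, 198 with 233, and 255 with 236). Values within the second batch (3 against 5 fish) and within these slides are given below for some of the leading genes. Fish 176 had the lowest median correlation with the other arrays, 0.951, against 0.966 to 0.983 for the rest.

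The 7 hormone genes measured were bright, with mean levels from 4.75 to 9.32 on the log2 scale relative to the 75th percentile, so the tissue showed the markers of its label. Growth hormone (annotated as LOC100136588, synonym gh) read 9.58, 9.49, 9.44, 9.53 and 9.49 in group D and 9.39, 9.42, 8.51, 9.2 and 9.03 in group E. Group D was uniform and its lowest fish stood just above the highest of group E, by a log2-ER of 0.4 ± 0.18 (SE, n = 5 and 5, adjusted p = 0.275) that was 0.16 after quantile normalization. Proopiomelanocortin (pomca), the precursor of ACTH and MSH, read 9.41 to 9.57 in group D and 8.54 to 9.48 in group E, a log2-ER of 0.33 ± 0.18 (adjusted p = 0.354) and of 0.02 after quantile normalization. Fish 233, whose array was the brightest (75th percentile 615), had the lowest value of its group for both genes and for prolactin and the thyrotropin beta subunit. Fish 240, the next brightest (460), had the next lowest value of group E for each of these genes. The part of the scaling in these differences was not tested.

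Prolactin (prl), the hormone of freshwater adaptation in fish, had a log2-ER of 0.36 ± 0.18 (adjusted p = 0.329). The thyrotropin beta subunit tshba differed least, by 0.16 ± 0.17 (adjusted p = 0.652), and its sign turned under quantile normalization (-0.05) and median scaling (-0.1). Somatolactin (smtlb) spread widely within both groups, from 5.68 to 7.82 in group D and from 5.5 to 6.88 in group E, and the group means differed by 0.58 ± 0.43 (adjusted p = 0.494). None of the 9 tested probes of the hormone list passed the unadjusted threshold in either direction, against 7.97% higher and 0.421% lower of all probes. In the brightest of the 5 bins, which held the 7 hormone genes, 39 of 6739 probes passed it with group D higher and 21 with group D lower. The list also took in the prolactin receptor genes prlra and prlrb by their symbols, with log2-ER of -0.26 and -0.25, and a receptor for prolactin-releasing hormone (prlh2r) that was too dim to test. Without the receptors 7 of 7 hormone genes had a positive log2-ER, and the median over the 9 probes was 0.36 against 0.07 for all probes tested, 0.16 against -0.03 after quantile normalization.

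The gonadotropin beta subunits varied more between fish than between groups. The follicle-stimulating hormone subunit fshb read 8.09, 7.36, 5.95, 6.51 and 6.16 in group D and 5.41, 6.32, 6.33, 5.62 and 6.84 in group E. Fish 176 and 180 were the highest of the 10, and they are the fish of the first scan batch. The log2-ER of 0.71 ± 0.42 (adjusted p = 0.398) became 0.1 within the second batch. For the luteinizing hormone subunit lhb the values were 4.71, 6.18, 3.74, 5.41 and 5.08 in group D and 3.81, 4.36, 3.81, 5.23 and 5.2 in group E, so that fish 180 was highest and fish 193 lowest, and the log2-ER of 0.54 ± 0.45 (adjusted p = 0.547) fell within the spread of either group. Of the other 4 pituitaries with a Stage I testis, fish 250 of group A and fish 160 of group B read 8.7 and 8.47 for fshb, and fish 188 of group A and 203 of group B 5.56 and 3.15. The paper proposes that fish 250 and 160 may be maturing. In 1 passage it also describes fish 180, of group D here, as changed in pituitary hormones alone, whereas its results name fish 250.

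**Figure D2:**
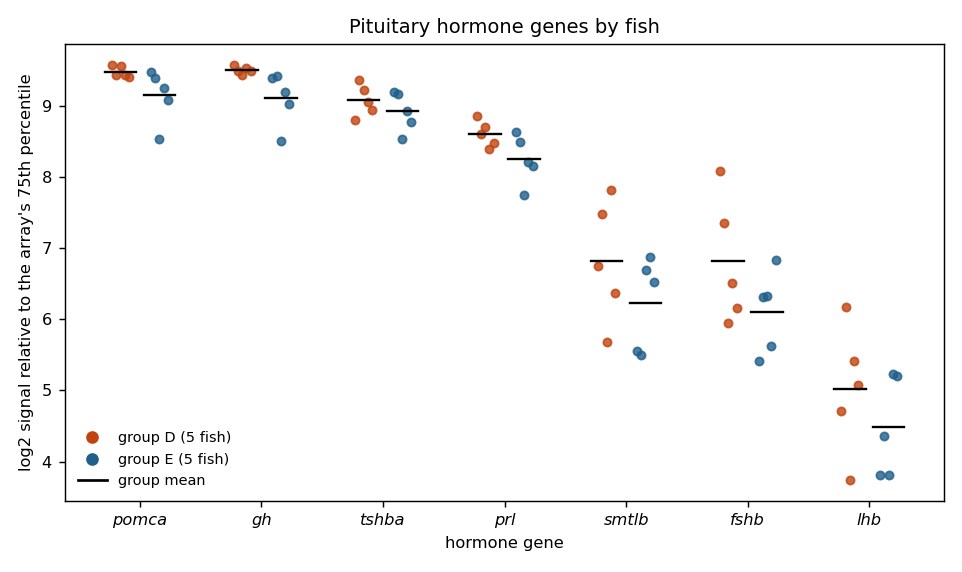
Level of 7 pituitary hormone genes (x axis) as log2 signal relative to the 75th percentile of the array (y axis) in each fish of group D and group E, with group means as bars. Growth hormone, pomca and tshba lie near 9 in both groups, and fshb, lhb and smtlb spread over more than 1 log2 unit within each group.

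Transcription factors of the gland gave 2 of 16 tested probes past the unadjusted threshold with group D higher and 0 with group D lower, against 7.97% and 0.421% of all probes. Lhx2b, a LIM homeodomain factor, read -4.78, -5.23, -5.06, -4.35 and -4.62 in group D and -6.38, -5.46, -5.82, -5.8 and -5.62 in group E, with no overlap. Its log2-ER was 1.01 ± 0.21 (adjusted p = 0.122), 0.54 after quantile normalization and 0.18 after normexp. Nr5a1b, a paralogue of steroidogenic factor 1 that marks gonadotropes, had a log2-ER of 1.27 ± 0.45 (adjusted p = 0.203) with a range of -1.13 to 0.95 in group D and -2.8 to -0.66 in group E. Isl1a was lower in group D by -0.32 ± 0.15 and rx3 higher by 0.32 ± 0.17 (adjusted p = 0.294 and 0.345).

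Receptors of hormones and releasing factors gave 2 of 22 tested probes past the unadjusted threshold with group D higher, a share near the 7.97% of all probes, and 0 lower. After quantile normalization 1 was higher and 1 lower. Somatostatin receptor sstr2a, which restrains growth hormone release in vertebrates, read -2, -2.61, -2.76, -3.35 and -3.16 in group D and -3.55, -3.24, -4.83, -4.52 and -3.96 in group E. Only fish 198 of group D lay below fish 226, the highest of group E, and the log2-ER was 1.25 ± 0.34 (adjusted p = 0.141), 0.94 after quantile normalization, 0.52 after normexp and 0.93 within the second scan batch. The progesterone receptor pgr differed by 0.9 ± 0.38 (adjusted p = 0.251), by 0.52 after quantile normalization, with overlapping groups. Serotonin receptors htr3a and htr1ab had log2-ER of -0.55 ± 0.22 and -0.31 ± 0.16 (adjusted p = 0.235 and 0.328).

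In the circadian clock list 2 of 28 tested probes, per1b and dbpb, were separated between the groups, against 4.19% of all probes with group D above. The period gene per1b, a repressor of the clock, read -3.44, -3.92, -3.76, -4.35 and -4.04 in group D and -5.72, -4.66, -6.61, -5.2 and -5.72 in group E. Every fish of group D lay above every fish of group E, by a log2-ER of 1.68 ± 0.32 or 3.2-fold (adjusted p = 0.122), and the difference was 1.28 after quantile normalization, 0.4 after normexp, 1.53 within the second scan batch and 0.9, 2.26 and 1.16 within the 3 slides. The probe was well above background in 5 fish of group D and 4 of group E. In the testis of the same fish per1b differed by 0.29 and in adipose tissue by -0.69 (adjusted p = 1 and 0.307).

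Dbpb, a PAR bZIP factor that follows the clock, read -2.61, -4.06, -3.21, -3.85 and -3.75 in group D and -4.42, -4.38, -5.2, -4.29 and -5.31 in group E, also without overlap. Its log2-ER was 1.23 ± 0.31 (adjusted p = 0.132), 0.89 after quantile normalization and 0.4 after normexp. Clocka, an activator of the clock, and the cryptochrome-family gene cry-dash differed by 0.43 ± 0.14 and 0.7 ± 0.3 (adjusted p = 0.19 and 0.266), with values in the 2 groups that met at their ends. Over the whole list, per1b and dbpb were the 2 of 28 tested clock and photoperiod probes past the unadjusted threshold with group D higher, a share near the 7.97% of all probes, and 0 were lower. After quantile normalization 2 were higher and 1, cry5, was lower. Cry5 ranged from -5.01 to -1.08 in group D and from -1.99 to -0.5 in group E. Its log2-ER was -1.54 (adjusted p = 0.289), -1.75 after quantile normalization and -0.55 after normexp. Aanat1 and arntl1a were also lower in group D, by -0.49 and -0.45 (adjusted p = 0.352 and 0.387). The median log2-ER was 0 over 14 positive and 14 negative values. The thyroid deiodinase genes dio2 and dio3b, which mediate day length in the vertebrate brain, had log2-ER of 0.11 and 0.26.

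Agouti-related peptide showed the smallest p of all named genes with a lower level in group D. Agrp encodes the appetite-stimulating antagonist of melanocortin receptors made in the hypothalamus. It read -4.74, -3.51, -3.97, -4.07 and -3.74 in group D and -2.94, -2.02, -2.73, -2.59 and -2.57 in group E. The highest fish of group D lay below the lowest of group E. The log2-ER was -1.44 ± 0.24, a 2.71-fold difference (adjusted p = 0.122), and all 10 values were well above background. The difference was -1.73 after quantile normalization, -0.44 after normexp, -1.36 within the second scan batch and -1.94, -1.35 and -1.15 within the 3 slides. Without overlap, the sign within the batch and the slides was fixed in advance. Of the other Stage I pituitaries, fish 188 and 250 of group A read -4.48 and -4.09, in the range of group D, and fish 160 and 203 of group B read -2.8 and -2.31, in the range of group E.

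Other feeding and growth genes differed by less. Neuropeptide Y (npy), made in the same hypothalamic neurons in vertebrates, ranged from -3.07 to -2.2 in group D and from -2.78 to -1.55 in group E, a log2-ER of -0.47 (adjusted p = 0.387) that was -0.69 after quantile normalization, and cart one of -0.35 (adjusted p = 0.505). The receptor igf2r had a log2-ER of 0.8 ± 0.26 (adjusted p = 0.175) and 0.39 after quantile normalization, sesn2 of the nutrient-sensing sestrins 0.71 ± 0.32 and igfbp7 0.37 ± 0.19. In all, 1 of 18 tested probes of the list passed the unadjusted threshold with group D higher and 1, agrp, with group D lower, against 7.97% and 0.421% of all probes. After quantile normalization agrp alone passed, and the median was -0.09 before and -0.11 after it.

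**Figure D3:**
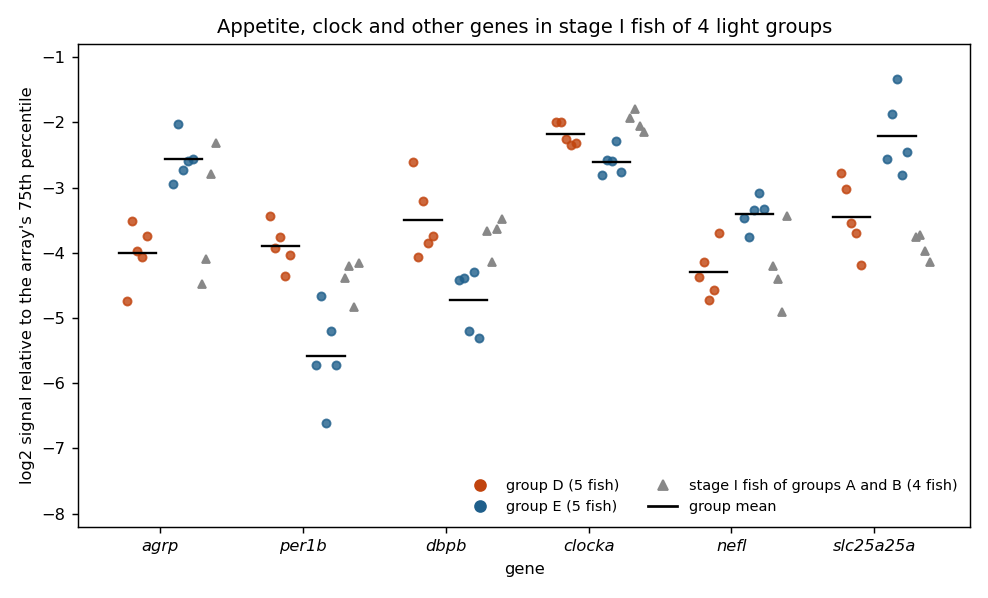
Pituitary levels of 6 genes (x axis) as log2 signal relative to the 75th percentile of the array (y axis), with circles for the fish of groups D and E, bars for their means and triangles for the 4 Stage I fish of groups A and B. Agrp lies lower in all 5 fish of group D than in group E, per1b and dbpb higher, and the triangles for agrp fall into both ranges.

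Among genes with a symbol and a log2-ER beyond 0.8, the 10 with the smallest p and a higher level in group D were bcorl1, znf385a, flot1, unc5cb, tet1, gbp7, rsu1, per1b, itpkb and mrps34. Being chosen by p, their separation is a description. Levels of all 10 were without overlap between the groups, against 4.19% of all probes with group D above. For mrps34 this was only by -3.96 in fish 193 against -3.97 in fish 236. Without overlap, the sign within the second batch and in each of the 3 slides was fixed in advance. For mrps34 the difference was 0.09 in the slide with fish 193. Beyond 0.8 stayed 9 after quantile normalization but 1 after normexp, whose offset shrinks the differences of dim probes. The zinc finger gene znf385a read -2.49, -2.59, -2.09, -2.88 and -3.04 in group D and -4.6, -4.45, -5.9, -3.82 and -5.61 in group E. Group E was the more variable, and the log2-ER was 2.26 ± 0.37 or 4.79-fold (adjusted p = 0.122), 1.94 after quantile normalization.

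Tet1, which oxidises 5-methylcytosine in DNA, read -1.85, -2.47, -2.03, -3.13 and -2.85 in group D and -4.73, -4.12, -4.5, -3.25 and -4.21 in group E. Fish 236 came close to the lowest fish of group D, and the log2-ER was 1.7 ± 0.32 (adjusted p = 0.122), 1.43 after quantile normalization. Bcorl1, a transcriptional corepressor, was dimmer, with -5.3 to -4.64 in group D and -7.15 to -5.84 in group E, a log2-ER of 1.51 ± 0.23, and 1 after quantile normalization. It was well above background in 5 and 2 fish. Gbp7, a guanylate-binding protein of the interferon-inducible family, was well above background in all fish of group D and in 0 of group E. Against the detection limit of the arrays this gave a bound of 1.57-fold. The bound carries no spread and was given for the scaling of the comparison alone, so it is no firm minimum. The log2-ER was 1.49 ± 0.28 (adjusted p = 0.122), 0.95 after quantile normalization and 0.19 after normexp. Stage I fish of groups A and B read -7.67, -7.28, -7.75 and -7.28, all below group D.

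Flot1, a flotillin of membrane rafts, rsu1, a Ras suppressor at cell adhesions, itpkb, an inositol trisphosphate kinase, and unc5cb, a netrin receptor, differed by 1.25 ± 0.21, 1.05 ± 0.2, 1.39 ± 0.27 and 1.34 ± 0.24. Their adjusted p was 0.122 in each case, and the quantile values were 0.87, 0.84, 0.93 and 0.8. Unc5cb was well above background in 4 and 3 fish. In fish 176 rsu1 read -1.42 and flot1 -3.16, apart from the other 4 fish of group D, which lay between -2.27 and -2.07 and between -3.97 and -3.84.

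**Figure D4:**
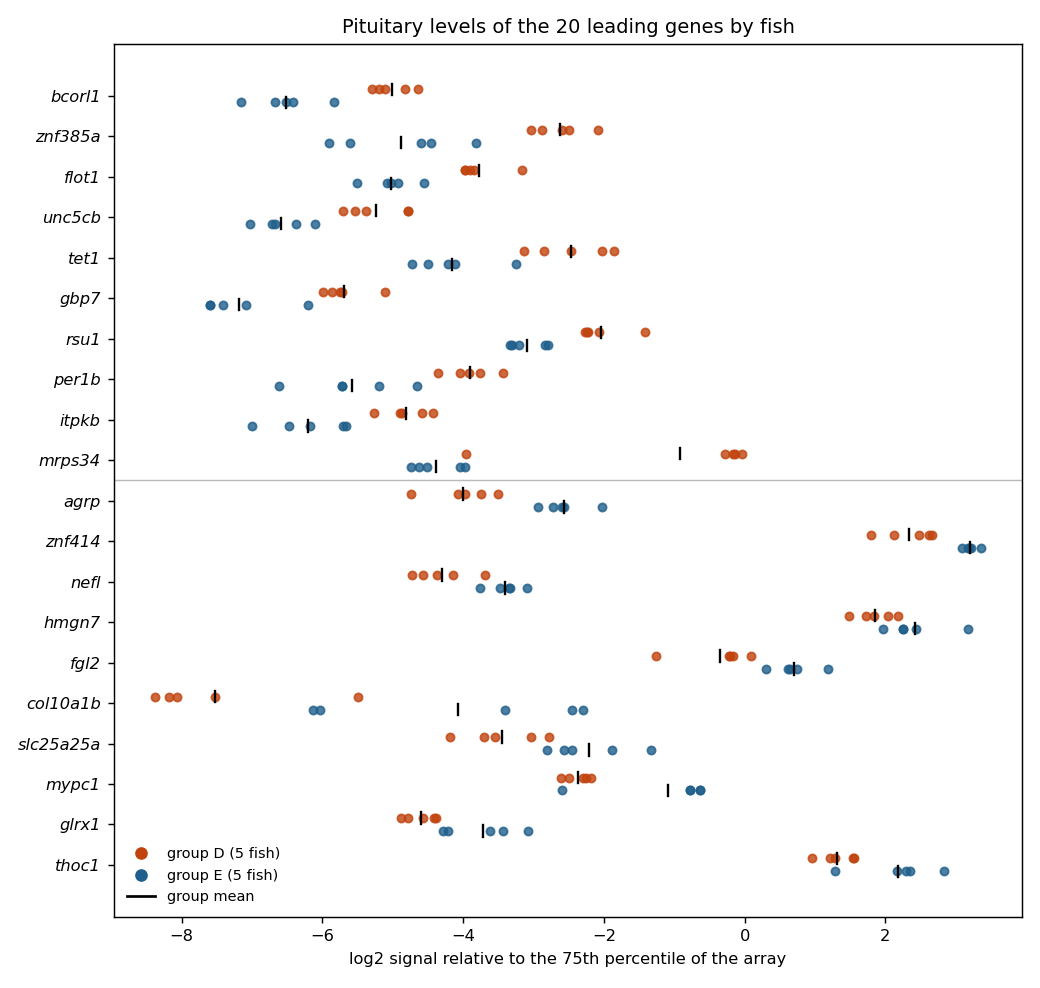
Level of the 10 genes with the smallest p and group D higher (above the grey line) and the 10 with group D lower (below it), as log2 signal relative to the 75th percentile of the array (x axis), 1 point for each fish and a bar for each group mean. Fish 193 stands with group E for mrps34 and fish 236 with group D for mypc1.

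Below the level of group E by the same rule were agrp, znf414, nefl, hmgn7, fgl2, col10a1b, slc25a25a, mypc1, glrx1 and thoc1 in group D. Without overlap were 4 of these 10, against 0.804% of all probes with group D below. Being chosen by p, their separation is a description. For hmgn7 the brighter of 2 probes is given, at -0.56, and the dimmer had -0.86. Znf414, a zinc finger gene, was bright and even in group E, with 3.19, 3.09, 3.36, 3.17 and 3.22, against 1.79, 2.12, 2.62, 2.48 and 2.66 in group D. The log2-ER was -0.87 ± 0.18 (adjusted p = 0.122), -0.81 after quantile normalization and -0.62 within the second batch, since fish 176 and 180 were the lowest. Fgl2, a fibrinogen-like protein, read -1.26, -0.17, 0.09, -0.22 and -0.21 in group D and 0.62, 1.19, 0.75, 0.3 and 0.64 in group E, a log2-ER of -1.06 ± 0.26 (adjusted p = 0.129).

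Slc25a25a, a mitochondrial ATP-Mg carrier, read -2.78, -3.03, -3.55, -3.7 and -4.18 in group D and -2.56, -1.88, -1.33, -2.81 and -2.46 in group E. Only fish 176 of group D reached the lowest fish of group E, and the log2-ER was -1.24 ± 0.33 (adjusted p = 0.134), -1.48 after quantile normalization and -0.6 after normexp. The 4 Stage I fish of groups A and B lay at -3.76, -3.73, -3.97 and -4.14, all below group E. Glutaredoxin glrx1 differed by -0.88 ± 0.24 (adjusted p = 0.14) without overlap and by -0.12 after normexp, and thoc1, of the mRNA export complex THO, by -0.87 ± 0.26 (adjusted p = 0.159).

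The neurofilament gene nefl, a marker of axons, read -4.37, -4.14, -4.73, -4.57 and -3.69 in group D and -3.47, -3.76, -3.35, -3.09 and -3.33 in group E. Fish 255 of group D reached the lowest fish of group E, and the log2-ER was -0.9 ± 0.21 (adjusted p = 0.125), -1.24 after quantile normalization and -0.24 after normexp. Of the 13 tested markers of brain neurons nefl was the 1 past the unadjusted threshold, against 0.421% of all probes with group D lower and 7.97% with group D higher. The summed level of the 12 measured in every fish was 66.3 to 149 times the 75th percentile in group D and 95.6 to 130 in group E. The part of neural tissue left on the gland in nefl and agrp was not tested. Hypocretin, another hypothalamic peptide gene (hcrt), had a log2-ER of -0.38 and gnrh3 of 0.18 (adjusted p = 0.441 and 0.743).

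Both collagen X genes had lower values in group D. Col10a1b, a collagen of hypertrophic cartilage and of teleost bone, read -8.38, -7.52, -5.49, -8.18 and -8.06 in group D and -2.46, -6.04, -3.41, -2.3 and -6.13 in group E. Fish 221, 233 and 236 stood apart at the top, and 1 fish of group D and 4 of group E were well above background. The log2-ER of -3.46 ± 0.86 (adjusted p = 0.131), -0.54 after normexp, is therefore no measure of the size of the difference. Its paralogue col10a1a was highest in the same 3 fish, at -4.5, -4.4 and -4.29, and its log2-ER was -0.98 ± 0.29 (adjusted p = 0.162), -0.08 after normexp. The cartilage and bone list of 5 probes gave summed levels of 0.0671 to 0.265 in group D and 0.152 to 0.348 in group E over the 4 tested. Of these 4, the collagen X genes were the 2 past the unadjusted threshold, against 0.421% of all probes with group D lower. The median log2-ER was -0.68 (-1.12 after quantile normalization) against 0.07 (-0.03) for all probes. The part of skeletal tissue in these values was not tested.

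Col4a5 and mmp28, of the same matrix list, were higher in group D. Col4a5, a chain of basement membrane collagen, read 1.51, 0.33, 0.34, 0.92 and 0.41 in group D and 0.2, 0.06, -0.55, -0.1 and -0.23 in group E, without overlap, the log2-ER being 0.82 ± 0.25 (adjusted p = 0.163), 0.84 after quantile normalization. The metalloproteinase gene mmp28 had a log2-ER of 1.68 ± 0.63 (adjusted p = 0.217) that became 0.95 within the second batch. Fish 176 was highest at -0.51 and fish 233 lowest at -5.93. Of 39 tested probes of collagens and matrix, 3 passed the unadjusted threshold with group D higher and 2, the collagen X genes, with group D lower, against 7.97% and 0.421% of all probes, and 22 values were positive and 17 negative. After quantile normalization the counts were 2 higher and 3 lower, and the median went from 0.01 to -0.14.

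A further 3 genes were split by fish and not cleanly by group. Mrps34, of the small mitochondrial ribosomal subunit, read -0.28, -0.14, -3.96, -0.16 and -0.04 in group D and -4.74, -4.05, -4.52, -3.97 and -4.63 in group E. Fish 193 stood at the level of group E, and the log2-ER was 3.46 with it and 4.22 without it. The probe was called without this fish, which is a description only, since the fish left out is the one that ran against its group. The testis of the same fish gave the same split, -0.07, 0.17, -4.21, 0.05 and -0.24 in group D and -5.23 to -4.24 in group E. Adipose tissue of group E held both levels, 0.98 and 0.4 in fish labelled 211 and 240 and -3.53 and -3.77 in fish 233 and 236. The adipose array labelled 240 thus differed from the pituitary (-4.63) and testis (-5.23) of that fish number. Whether adipose arrays carry the right fish number was not tested. Among the other Stage I pituitaries, fish 188 of group A and 203 of group B read 0.22 and -0.19, and fish 250 of group A and 160 of group B -4.5 and -3.75.

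LOC106603080, which the rule for named genes does not cover and which was picked after its values were seen, read -8.19, -3.09, -8.25, -8.21 and -8.09 in group D and -3.26, -3.72, -3, -3.51 and -3 in group E. Fish 180 alone in group D stood at the level of group E. It was also the 1 fish of group D well above background, so the other 4 values are at the floor of the array and give no size of the difference. The probe was called without this fish and within the second scan batch, which does not hold it, and both are descriptions only. Testis levels of this probe were low in all 10 fish, from -8.9 to -7.5, and the 4 Stage I pituitaries of groups A and B read -3.3, -3.83, -3.7 and -3.93. Mypc1, a myosin-binding protein C of muscle, read -0.78, -0.78, -0.64 and -0.63 in fish 221, 226, 233 and 240 and -2.6 in fish 236, which lay among the -2.61 to -2.19 of group D, and the log2-ER was -1.29 with fish 236 and -1.67 without it. The probe was called without this fish, again a description, since it is the one that ran against its group. Skeletal muscle markers, summed over 11 probes, were 14.1 to 17.6 in group D and 14.7 to 17.5 in group E.

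Lipid genes were listed because the feed of group E was low in fat. Srebf2, the transcription factor of sterol synthesis, read -1.03 in fish 176 and -3.66 to -3.07 in the other 4 fish of group D, against -5.08 to -3.69 in group E. The log2-ER was 1.33 ± 0.46 (adjusted p = 0.197) and 0.79 within the second batch, and a second probe of the gene gave -0.38, so the probes disagreed in sign. Hsd17b7, of cholesterol synthesis, differed by 0.86 ± 0.31, lanosterol synthase (lss) by -0.42 ± 0.16 and mevalonate kinase (mvk) by -0.31 ± 0.15 (adjusted p = 0.204, 0.222 and 0.307). Over the 17 sterol probes tested, 2 passed the unadjusted threshold with group D higher and 0 with group D lower. The shares of all probes were 7.97% and 0.421%. Of the 17, 10 had a negative log2-ER, and the median was -0.13.

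The 41 tested probes of fatty acid synthesis and use had a median log2-ER of -0.04. Past the unadjusted threshold 1 was higher in group D and 0 were lower, against 7.97% and 0.421% of all probes. The 1 was acod1, with group D higher by 1.55 ± 0.7 (adjusted p = 0.277). Acod1 makes itaconate in activated macrophages of mammals and was taken into the list by its symbol pattern. Acetyl-CoA carboxylase acaca, the entry to fatty acid synthesis, differed by 0.61 ± 0.3, carnitine palmitoyltransferase cpt1ab, the entry to mitochondrial oxidation, by -0.39 ± 0.19 and pparg by 0.62 ± 0.3 (adjusted p = 0.303, 0.307 and 0.31). For pparg fish 176 at -2.5 stood away from the other 4 fish of group D at -4.38 to -3.89, and group E lay between -4.44 and -4.29.

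In the interferon list 0 of 21 tested probes were higher past the unadjusted threshold and 1 was lower, against 7.97% and 0.421% of all probes. It was ifi44g, an interferon-induced gene, at -2.01, -0.99, -2.57, -2.06 and -2.37 in group D against -1.45, -1.75, -0.87, -1.15 and -0.09 in group E. Fish 180 of group D lay within group E, and the log2-ER was -0.94 ± 0.35 (adjusted p = 0.217). The sensor dhx58 had -0.35, irf7 0.37 and irf2bpl 0.53. Antigen presentation, complement and chemokine genes gave 3 of 89 higher and 0 lower with a median of -0.02, whereas after quantile normalization 0 were higher and 3 lower with a median of -0.16. The 3 were cxcr5 at 1.58, il12b2 at 1.21 and ccl25a at 1.54 (adjusted p = 0.227, 0.248 and 0.278), picked after their values were seen. Members with a smaller p had smaller differences, 0.6 for cxcl-c13b, 0.79 for tnfsf10l, -0.58 for tap2a and -0.59 for il4/13a.

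Of 27 stress and immediate early probes, 1 was higher past the unadjusted threshold and 0 were lower, against 7.97% and 0.421% of all probes. After quantile normalization 0 passed it. The 1 was the AP-1 gene fosl1a with a log2-ER of 1.02 ± 0.37 (adjusted p = 0.211), well above background in 4 fish of group D and 1 of group E. The glucocorticoid-induced gene tsc22d3 differed by -0.61 ± 0.3 (adjusted p = 0.31), gadd45gb.1 by 0.79 and dnajb13 by -0.31.

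Among 61 ribosomal protein probes, 64 respiratory chain probes and 35 cell cycle probes, 0 passed the unadjusted threshold in either direction. Of all probes 7.97% passed it with group D higher and 0.421% with group D lower. In the brightest of the 5 bins it was 39 of 6739 with group D higher and 21 with group D lower. Medians of these lists, in the same order, were 0.05, -0.06 and 0.07 against 0.07 for all probes. Ribosomal genes rs11, rpl27a and rpl3 had log2-ER of 0.3, 0.3 and 0.31 and rps12 of -0.3. The respiratory chain genes nduab, cox11, atp5f1c and ndufs4 had -0.45, -0.27, -0.25 and -0.23, and 43 of the 64 probes were negative, against 14024 of all 33696. The share of all probes takes in the dim bins, where the median log2-ER was 0.45 and 0.3. In the brightest bins it was -0.05 and -0.07, near the -0.06 of this list. The list was not compared with probes of its own level. Cell cycle gene bub1, of the spindle checkpoint, had 0.61 ± 0.17 (adjusted p = 0.149) without overlap, borea 0.33, rir2 0.39 and mcmdc2 0.4.

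Summed levels of 4 further marker lists overlapped between the groups. Erythrocyte markers ranged from 52 to 192 in group D and from 81.8 to 160 in group E, glial markers from 3.82 to 11.4 and from 5.04 to 11, adipocyte markers from 6.22 to 10.4 and from 7.89 to 12.4, and leucocyte markers from 27.3 to 49.5 and from 35.9 to 54.9. None of the tested probes of these lists passed the unadjusted threshold, against 7.97% higher and 0.421% lower of all probes. For the erythrocyte list 1 of 9 and for the adipocyte list 1 of 7 probes was not above background on any of the 10 arrays.

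The same groups were compared in the testis and adipose tissue. Of 34089 testis probes 0 were called and 178 (0.522%) passed the unadjusted threshold, and in adipose tissue of 5 and 4 fish 0 of 30497 were called and 4206 (13.8%) passed it. The adipose arrays of group E were uneven. Pomca read 5.53 in fish 236 and 1.41 in fish 233, but -2.63 and -2.78 in fish labelled 211 and 240 and -2.98 to -1.08 in group D. Prl read 4.12 in fish 236 and -7.6 to -5.39 in group D. The array labelled 211 was the dimmest, with 51.08% of spots well above background. The cause was not tested. Fish numbers tied pituitary and testis together: each of the 10 pituitary arrays was nearest to the testis array of its own fish. This was taken over the 200 probes most correlated in the other fish (r = 0.776 to 0.886, next best 0.139 to 0.344, a description across probes). Adipose arrays were not part of this check. The test of the difference itself, pituitary minus testis within each fish, called 0 of 31342 probes, and 1966 (6.27%) passed the unadjusted threshold, 1827 of them with a more positive difference in the pituitary. This split depended on the scaling: it was 485 more positive and 427 more negative after quantile normalization, and 70 and 55 after normexp. Of the 20 leading genes, 18 were tested in the testis and 2 of these, mrps34 at 3.77 and glrx1 at -1.38, had a testis log2-ER beyond 0.8.

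**Figure D5:**
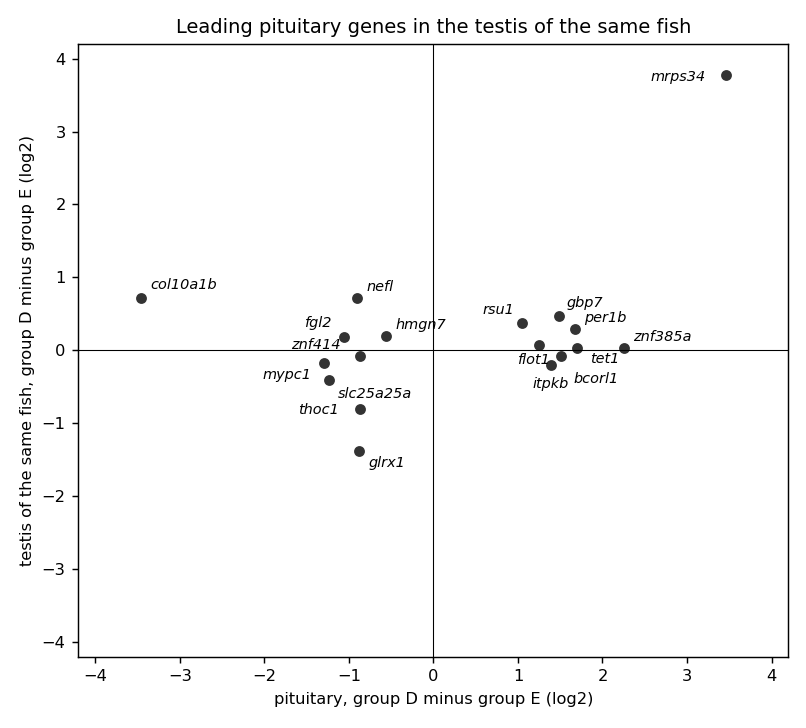
Group D minus group E on the log2 scale in the pituitary (x axis) and in the testis of the same fish (y axis) for the 18 leading genes tested in both, 1 point a gene. Mrps34 lies at 3.46 and 3.77, and most other genes lie within 0.8 of 0 on the testis axis.

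A comparison added after the data were seen set group E against all 9 other pituitaries with a Stage I testis, from groups A, B and D, which had the standard feed. Its 14 arrays include all 10 of the comparison above, so its values for genes chosen there are descriptions and no independent support. It called 590 of 33926 probes higher in the other fish (1.74%) and 32 lower (0.0943%), 104 and 26 after quantile normalization, and 1 when the scan batch was fitted as a block. Groups A and B were scanned only in the first batch and group E only in the second. The paper proposes that fish 250 of group A and fish 160 of group B may be sexually maturing. Its grounds are plasma hormones and pituitary expression, with testes closer to those of immature males. The paper also states that its fish were kept under different light. Neither maturation nor light was separated from the feed in this comparison, so the part of each in the calls was not tested. Per1b was higher in the other fish by 1.46 (1.53 with the scan batch fitted), dbpb by 1.12 (1.12), znf385a by 1.93 (2.21), itpkb by 1.41 (1.19) and bcorl1 by 1.41 (1.44). Slc25a25a differed by -1.44 (-1.6), znf414 by -0.97 (-0.62) and agrp by -1.18 (-1.36). Agrp was not called (adjusted p = 0.085) and the other 7 were, dbpb no longer after quantile normalization (0.86, adjusted p = 0.0747). With the scan batch fitted none of the 8 was called (adjusted p from 0.334 to 0.418). The differences from that fit are those of group D against group E within the second batch. Groups A and B add nothing to them, so they cannot show whether the wider comparison holds apart from the batch. Without fish 233 or without fish 240 of group E the count was 3.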

How the data were processed

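Pituitary, testis and adipose RNA was hybridised by the authors to one-colour Agilent arrays and scanned, and the deposited intensity values were made with Agilent Feature Extraction 12.0.1.1, which subtracted background and removed trends within each array, with no scaling between arrays. The labels and the study's methods name different RNA extraction kits. Genome build and annotation were not given in the sources used here. Symbols came from a RefSeq table: 25641 of 42386 probes (60.5%) had a gene.

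Values were log2 intensity minus the 75th percentile of the array, with control and outlier spots left out. Probes well above background on at least 5 of the 10 arrays (4 for adipose tissue) and with 3 values per group were tested with limma 3.58.1 in R 4.3.3 and Benjamini-Hochberg adjustment over all probes tested, a probe being called at 0.05 where its log2-ER was also beyond 0.8 (1.74-fold). The code was tested on simulated data. Technical values were compared by exact permutation tests. For a probe not above background in any fish of a group, the lower bound of the fold used the dimmest signal among probes above background on each array. The number of arrays limits the precision.

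Named genes were the 10 with the smallest p in each direction among those with a symbol and a log2-ER beyond 0.8, every measured hormone gene, and up to 4 members of each other list by smallest p, with the brightest probe of a gene. Genes of the lists not chosen by this rule (dio2, dio3b, cry5, aanat1, arntl1a, hcrt, gnrh3, npy and cart) were named after their values were seen. The groups, lists and rules were chosen with earlier results of these data known. Lists matched symbols by pattern and took in some genes of similar name. Fish numbers paired pituitary and testis of 1 fish by title, as the nearest-array check in the report showed. For 1 testis array of group E the title (226) and another label (236) disagreed and the title was used, and 1 adipose array of group E carried the number of a group B fish (211).

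Alternatives were normexp correction (offset 50), quantile, cyclic loess and median scaling, the authors' processed values, other filters and limits, the scan batch and the slide as blocks, array weights, and leaving out each fish. The deposited table of processed values had 49 further columns of other samples that were not used.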

Additional observations from a re-analysis of the deposited data

Results flagged for a closer look

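Of 162 groups of 5 values examined, 14 held a fish far from the other 4 of its group, where chance gives about 1 in 20. Fish 176 of group D, the array with the lowest correlation with the others, accounted for 8 of them. It was highest for flot1 (-3.16, next -3.84), rsu1 (-1.42, next -2.07), prlh2r (-3.44, next -5.99), srebf2 (-1.03, next -3.07), pparg (-2.5, next -3.89) and tnfsf10l (-1, next -1.77), and lowest for fgl2 (-1.26, next -0.22) and rps12 (5.78, next 6.08). Fish 193 of group D was lowest for mrps34 (-3.96, next -0.28) and highest for gadd45gb.1 (-4.56, next -5.22), and fish 255 was highest for htr1ab (1.6, next 1.24). In group E, fish 236 was lowest for mypc1 (-2.6, next -0.78), fish 226 for rs11 (7.75, next 7.81) and fish 233 for mmp28 (-5.93, next -3.84). All values are log2 levels relative to the 75th percentile of the array.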

How the results depend on the processing

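The count of 0 called pituitary probes became 362 with the slide as a random block, 71 with the other pituitary arrays sharing the spread, 2 with array weights and 1 within the second scan batch, and ran from 0 to 263 when each fish was left out (263 without fish 226, and 1 each without fish 180, 193 and 236). Of the 263 probes, 163 were among the 362, as were all 71. At an unadjusted p the counts were 2828 with limma and 2201 with the methods' t-test, which gave 0 after Benjamini-Hochberg adjustment. Every other pituitary alternative gave 0. The higher and lower counts at an unadjusted p were 2686 and 142 as reported, 163 and 43 with normexp, 1164 and 626 with median scaling, 1097 and 229 with the authors' processed values, 817 and 587 with cyclic loess. The causes were not tested. Leaving out each fish gave 0 to 2 testis probes and 0 to 1334 adipose probes (1334 without fish 236, 232 without the fish labelled 211), and fitting the scan batch gave 91 adipose probes. For group E against the other Stage I fish, 622 probes became 130 with quantile normalization and 1 when the scan batch was fitted, and leaving out each fish gave 3 to 1136: 3 without fish 233 or 240, 138 without 236, 200 without 203, 274 without 193, 315 without 250, 338 without 180, 363 without 188 and 1136 without 226.

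In the pituitary minus testis test the replicate block is the fish. Without the replicate block 0 probes were called, as with it, and 1540 against 1966 passed the unadjusted threshold. Leaving out each fish gave 0 to 1 (1 without fish 221).

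Among named genes, 1984 values under an alternative kept their sign and stayed uncalled, 28 kept their sign and were called, and 4 turned sign: tshba with quantile normalization (-0.05), median scaling (-0.1) and without the 2 brightest arrays (-0.02), and mcmdc2 with cyclic loess (-0.01). Median scaling moved the median of all probes from 0.07 to -0.19, and the list medians to 0.09 for hormones, -0.16 for transcription factors, -0.24 for receptors, -0.27 for clock, -0.39 for sterol, -0.3 for fatty acid, -0.35 for feeding, -0.36 for interferon, -0.29 for antigen presentation, -0.22 for ribosomal, -0.32 for respiratory, -0.2 for cell cycle and -0.26 for collagen genes. Quantile normalization gave -0.08 for receptors, -0.16 for antigen presentation and -0.14 for collagens. The authors' processed values gave -0.11 for receptors, -0.15 for fatty acid, -0.22 for respiratory and -0.07 for cell cycle genes. Cyclic loess, the sets without 2 arrays and the comparison with other Stage I fish were chosen after seeing the data.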
